A study of Mus musculus with 18 samples.

Results

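The genes described here encode the core of the RAS, RAF, MEK and ERK cascade, and 7 of them were listed: Hras, Nras, Araf, Braf, Map2k1, Map2k2 and Mapk3. They were listed as cascade members, including the kinases hit by the MEK inhibitor, and the rule itself used no treatment differences. The list was made with earlier results of these data known. A gene was measured where the array annotation gave a probe set (a group of short probes read as 1 value) with that gene's symbol alone, and where several did, the brightest on average across the 18 arrays was taken for it. By this rule 5 of the 7 genes were measured (Nras, Araf, Braf, Map2k1 and Map2k2), out of 18193 genes in all, with 20 probe sets among them out of 45037. Hras and Mapk3 were not analysed here.

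MC38 is a mouse colon carcinoma cell line, here injected subcutaneously into C57BL/6-Ly5.1 mice aged 6 to 12 weeks with an immune system of their own, so all 4 groups share 1 tumour line and 1 host strain. RNA of unsorted tumour pieces, taken on day 22 after inoculation, was read on single-colour arrays. Control mice (n = 5) received vehicle and a control antibody, the anti-CD40 group (n = 4) received vehicle and an agonist antibody to the receptor CD40, the MEKi group (n = 5) received the MEK inhibitor GDC-0623 and a control antibody, and the MEKi/CD40 group (n = 4) received the inhibitor and anti-CD40. Daily doses of GDC-0623 were 30 mg/kg over about 2 weeks, and antibodies followed on treatment days 3, 5 and 7, with a last dose 1 day before sampling. The question was whether their RNA differed between the treatment groups.

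RAS proteins are small GTPases that are loaded with GTP below growth factor receptors and then recruit RAF kinases to the membrane. RAF kinases phosphorylate the dual-specificity kinases MEK1 and MEK2 (encoded by Map2k1 and Map2k2), which in turn phosphorylate the ERK kinases, and the signal is carried mainly by phosphorylation and by localisation of proteins that are already present. Drugs of the class of GDC-0623 bind MEK beside its ATP site, and activity of the cascade is not read by an RNA array.

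All values are log2 signals, on which 1 unit is a doubling. Values below about 3 lie at background and carry no level. Of 8 markers of colon epithelium, 7 (Krt8, Krt18, Krt19, Krt20, Epcam, Cdx2 and Vil1) stayed at 2.76 or below on every array, so they were at background in tumours labelled as colon carcinoma, while Cdh1 read 4.35 to 6.89. Markers of other cells also moved with the groups. The mean of 7 fibroblast markers was 10.81 to 11.45 in control, 11.23 to 12.03 in anti-CD40, 12.48 to 13.28 in MEKi and 13.59 to 13.82 in MEKi/CD40. The mean of 4 leukocyte markers was 11.77 to 12.35, 11.76 to 12.27, 10.67 to 11.82 and 11.09 to 12.31 in the same order. Adipocyte markers were highest in MEKi/CD40 2 (11.95), MEKi/CD40 4 (8.48) and anti-CD40 3 (7.42), and MEKi/CD40 4 also had muscle markers at 8.57 where every other array read at most 2.84. In RNA of unsorted tumour pieces, fewer cells of a type and less RNA per cell cannot be told apart. The part of cell mixture in the values below was not tested.

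None of the 5 genes passed the test in any of the 7 comparisons (limma, adjusted p under 0.05 over all 45037 probe sets). Over all probe sets, 14.9% were called for MEKi/CD40 against control (5.5% higher and 9.37% lower), 7.83% for MEKi against control (3.99% higher and 3.83% lower) and 0% for anti-CD40 against control, where 2423 probe sets had an unadjusted p under 0.05. Among the treated groups 11.6% were called for MEKi/CD40 against anti-CD40 (4.42% higher and 7.19% lower), 2.5% for MEKi/CD40 against MEKi (0.737% higher and 1.77% lower) and 5.09% for MEKi against anti-CD40 (2.83% higher and 2.26% lower). For the interaction, which asks whether both drugs together differ from the sum of the single effects, the share was 2.64% (1.06% higher and 1.58% lower). All 5 genes gave clear signals, and among the 14520 probe sets with a mean of at least 7 the shares called were 35.7%, 19.1% and 0% against control. With 5 genes these shares allow no statement about the genes as a set. At an unadjusted p under 0.05 the count was 1 gene for MEKi/CD40 against MEKi (Araf), 1 for MEKi against anti-CD40 (Braf) and 0 in each of the other 5 comparisons. In those 2 comparisons 16.8% and 18.5% of all probe sets, and 36.1% and 43.2% of the brighter ones, had such a p.

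**Figure D1:**
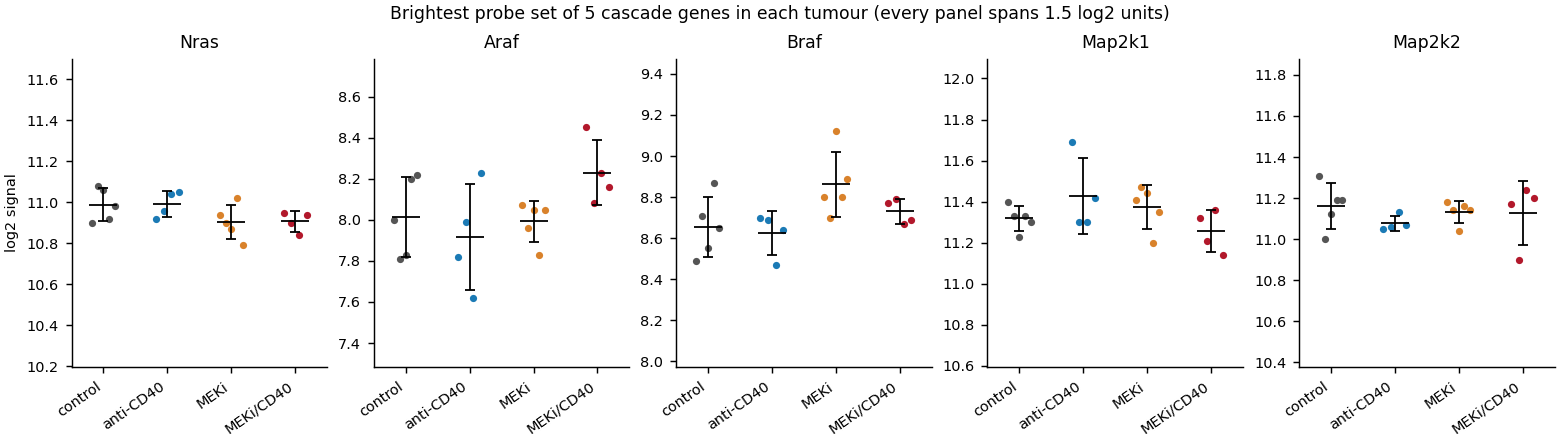
Log2 signal (vertical axis) of the brightest probe set of Nras, Araf, Braf, Map2k1 and Map2k2 in each tumour by treatment group (horizontal axis). Points are single tumours, horizontal marks are group means, bars are SD, and every panel spans 1.5 log2 units. The groups overlap in every panel apart from Araf, where the 4 MEKi/CD40 tumours (8.08 to 8.45) lie above the 5 MEKi tumours (7.83 to 8.07).

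The differences against control were small and their intervals narrow. For MEKi/CD40 they ran from -0.0805 to 0.22 with a median of -0.0345, for MEKi from -0.084 to 0.21 with a median of -0.02, and for anti-CD40 from -0.097 to 0.11 with a median of -0.029. The median over all 45037 probe sets was 0 in each of these comparisons, and over the 14520 brighter ones it was -0.076, -0.016 and -0.0095. In all 15 of these differences, each of a brightest probe set, the 95% interval lay within 0.5 log2 units of 0. For these probe sets a change as large as that, in either direction, lies outside the intervals. Of all 20 probe sets of these genes, 15 had such an interval for MEKi/CD40, 17 for MEKi and 16 for anti-CD40. The intervals take no account of the ranges of title numbers described below.

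**Figure D2:**
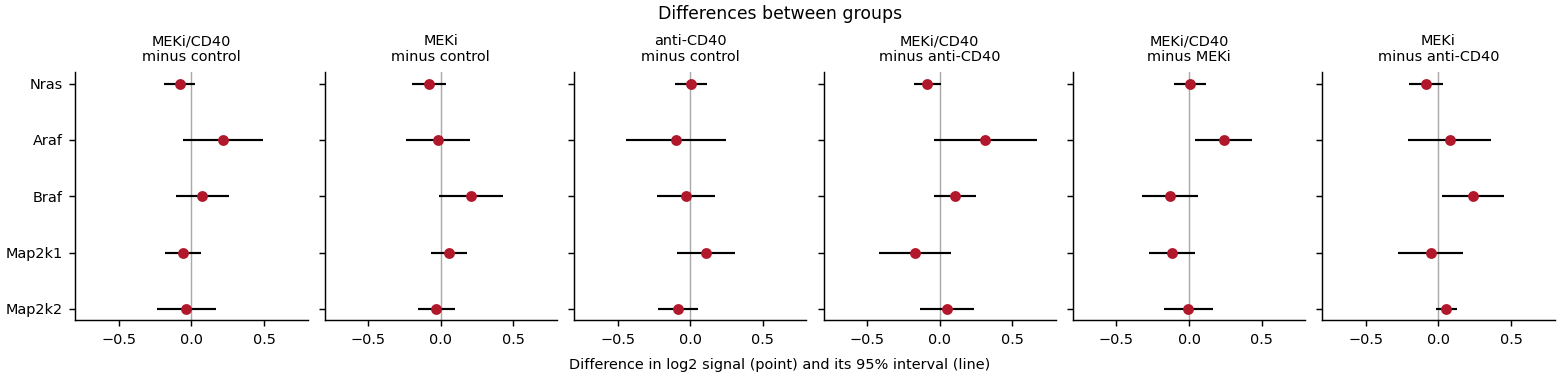
Difference in log2 signal (horizontal axis, points) with its 95% interval from limma (lines) for the 5 genes (vertical axis) in the 6 comparisons of 2 groups. Intervals that leave out 0 are those of Araf for MEKi/CD40 minus MEKi and of Braf for MEKi minus anti-CD40, and neither gene passed the adjusted threshold.

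Nras encodes a RAS GTPase. Its signal was 10.90, 11.08, 11.06, 10.92 and 10.98 in control, 10.92, 10.96, 11.04 and 11.05 in anti-CD40, 10.94, 10.90, 10.87, 11.02 and 10.79 in MEKi, and 10.95, 10.90, 10.84 and 10.94 in MEKi/CD40. The lowest value was in MEKi and the highest in control, and all groups overlapped. Nras differed from control by -0.0805 ± 0.045 (SE, n = 4 and 5, limma adjusted p = 0.365) in MEKi/CD40, by -0.084 ± 0.051 in MEKi and by 0.0045 ± 0.048 in anti-CD40. In order of level, anti-CD40 (10.99) and control (10.99) stood above MEKi/CD40 (10.91) and MEKi (10.90), with SDs of 0.05 to 0.085, and no neighbours in that order differed beyond this spread.

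The other probe sets of Nras had lower means in each treated group than in control, to differing extents. For 1422687_at the means of MEKi/CD40 and control were 10.62 and 10.66, while their medians were 10.675 and 10.64. The probe set 1422687_at was 10.59 to 10.79 in control, 10.48 to 10.63 in anti-CD40, 10.36 to 10.57 in MEKi and 10.43 to 10.70 in MEKi/CD40, so that every MEKi tumour was below every control tumour, with a difference of -0.17 ± 0.049 (limma adjusted p = 0.0719). Between MEKi and control 9.17% of all probe sets and 21.3% of the brighter ones did not overlap. The probe set 1422688_a_at was 10.42 to 10.72 in control and 10.05 to 10.44 in MEKi/CD40, a difference of -0.33 ± 0.096 (limma adjusted p = 0.0651), and these groups overlapped. Neither passed the threshold, and the 3 probe sets of Nras did not give the same size of difference.

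RAF kinases link RAS to MEK. Araf, the RAF kinase with the lowest basal activity, had the widest spread of the 5 genes. Its signal was 8.00, 7.81, 7.83, 8.20 and 8.22 in control and 7.82, 7.99, 7.62 and 8.23 in anti-CD40. It was 8.07, 7.96, 8.05, 7.83 and 8.05 in MEKi, and 8.45, 8.08, 8.23 and 8.16 in MEKi/CD40. The MEKi/CD40 tumours were all above the MEKi tumours and overlapped with control and with anti-CD40. Araf differed by 0.24 ± 0.084 between MEKi/CD40 and MEKi (95% interval 0.041 to 0.44, limma unadjusted p = 0.0242, adjusted p = 0.202), and was the 1 of 5 genes without overlap. In this comparison 8.93% of all probe sets and 19.7% of the brighter ones did not overlap, and 2.5% of all probe sets were called. Against control the difference was 0.22 ± 0.12 in MEKi/CD40 (adjusted p = 0.341), -0.02 ± 0.096 in MEKi and -0.097 ± 0.15 in anti-CD40, and the interaction was 0.34 ± 0.17 (limma adjusted p = 0.405). In order of level the groups stood at 8.23 (MEKi/CD40), 8.01 (control), 7.99 (MEKi) and 7.92 (anti-CD40), with SDs of 0.10 to 0.26.

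The 4 other probe sets of Araf went different ways between MEKi/CD40 and MEKi. The next brightest, 1435566_s_at, was 7.26 to 7.47 in MEKi/CD40 and 7.47 to 7.71 in MEKi, a difference of -0.19 ± 0.068 (limma adjusted p = 0.211) in the opposite direction to the brightest set. The dim probe set 1440764_at read 4.82, 6.32, 5.84 and 5.10 in MEKi/CD40 against 4.53, 3.87, 4.74, 4.07 and 3.87 in MEKi and 4.45, 4.47, 4.69, 4.36 and 4.54 in control. Here all MEKi/CD40 tumours were above all control and all MEKi tumours, with differences of 1.02 ± 0.30 (adjusted p = 0.0647) and 1.30 ± 0.35 (limma adjusted p = 0.107), and its highest value was in MEKi/CD40 2, the array with the highest adipocyte markers. Against control and MEKi, 16.8% and 8.93% of all probe sets did not overlap, and 38.1% and 19.7% of the brighter ones. Of the last pair, 1445693_at differed from control by 0.53 ± 0.22 in MEKi/CD40 (adjusted p = 0.181), and 1428607_at read 6.67 to 7.12 on every array apart from MEKi 3 at 7.58. The direction for Araf therefore depended on the probe set, and none of its 5 probe sets passed the test in any comparison.

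Braf, the RAF kinase with the strongest basal activity towards MEK, read 8.49, 8.71, 8.55, 8.87 and 8.65 in control and 8.70, 8.69, 8.47 and 8.64 in anti-CD40. It read 8.80, 8.70, 9.12, 8.80 and 8.89 in MEKi, and 8.77, 8.79, 8.67 and 8.69 in MEKi/CD40. The highest value was in MEKi, and MEKi touched anti-CD40 at 8.70 without lying below it. Braf differed by 0.24 ± 0.091 between MEKi and anti-CD40 (95% interval 0.024 to 0.45, limma unadjusted p = 0.0337, adjusted p = 0.211) and by 0.21 ± 0.095 between MEKi and control (adjusted p = 0.266). The differences from control were 0.076 ± 0.077 in MEKi/CD40 and -0.029 ± 0.086 in anti-CD40. With the adipocyte score as a covariate, an alternative chosen after the data were seen, Braf was called for MEKi against control (0.49, limma adjusted p = 0.0361) and for MEKi against anti-CD40 (0.32, adjusted p = 0.0422).

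The next brightest probe set of Braf, 1456505_at, gave the 1 call among the 20 probe sets. It read 6.48, 6.67, 6.50, 6.74 and 6.62 in control and 6.41, 6.22, 6.21 and 6.02 in anti-CD40. It read 6.81, 6.67, 6.89, 7.06 and 6.96 in MEKi, and 6.09, 6.67, 6.42 and 6.41 in MEKi/CD40. All MEKi tumours were above all anti-CD40 tumours, and all anti-CD40 tumours were below all control tumours. In the former comparison 10.4% of all probe sets and 24.8% of the brighter ones did not overlap, and in the latter 1.69% and 3.31%. The probe set was 0.66 ± 0.10 higher in MEKi than in anti-CD40 (limma adjusted p = 0.021), a comparison in which 2.83% of all probe sets were called higher. This call was lost under 8 of 22 alternatives, among them the fits without anti-CD40 2 (0.66, adjusted p = 0.0676) or without anti-CD40 3 (0.66, adjusted p = 0.062), an array with raised adipocyte markers. It was also lost with trend and robust moderation (limma adjusted p = 0.0736), with replicate numbers as a block (0.64, adjusted p = 0.246) and with the ranges of title numbers described below as a block (0.525, adjusted p = 0.0999 with 2 ranges and 0.082 with 3). It differed from control by 0.28 ± 0.081 in MEKi (adjusted p = 0.0782) and by -0.39 ± 0.088 in anti-CD40 (limma adjusted p = 0.561, where 0% of probe sets were called), and MEKi/CD40 differed from MEKi by -0.48 ± 0.13 (adjusted p = 0.0967).

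A further probe set of Braf, 1435480_at, read 5.25 to 5.81 in anti-CD40, 5.83 to 6.16 in MEKi, 5.89 to 6.47 in MEKi/CD40 and 5.45 to 6.23 in control. The anti-CD40 tumours were below all MEKi and all MEKi/CD40 tumours, with differences of 0.47 ± 0.13 (adjusted p = 0.0847) and 0.68 ± 0.17 (limma adjusted p = 0.0531). Of all probe sets 10.4% and 18.4% did not overlap there, and of the brighter ones 24.8% and 41.2%. In MEKi against anti-CD40 the 3 brightest probe sets of Braf thus had the same sign (0.24, 0.66 and 0.47), and they share the same tumours. The other 6 probe sets of Braf had means below 4 and lay near background, so they carry no comparison.

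**Figure D3:**
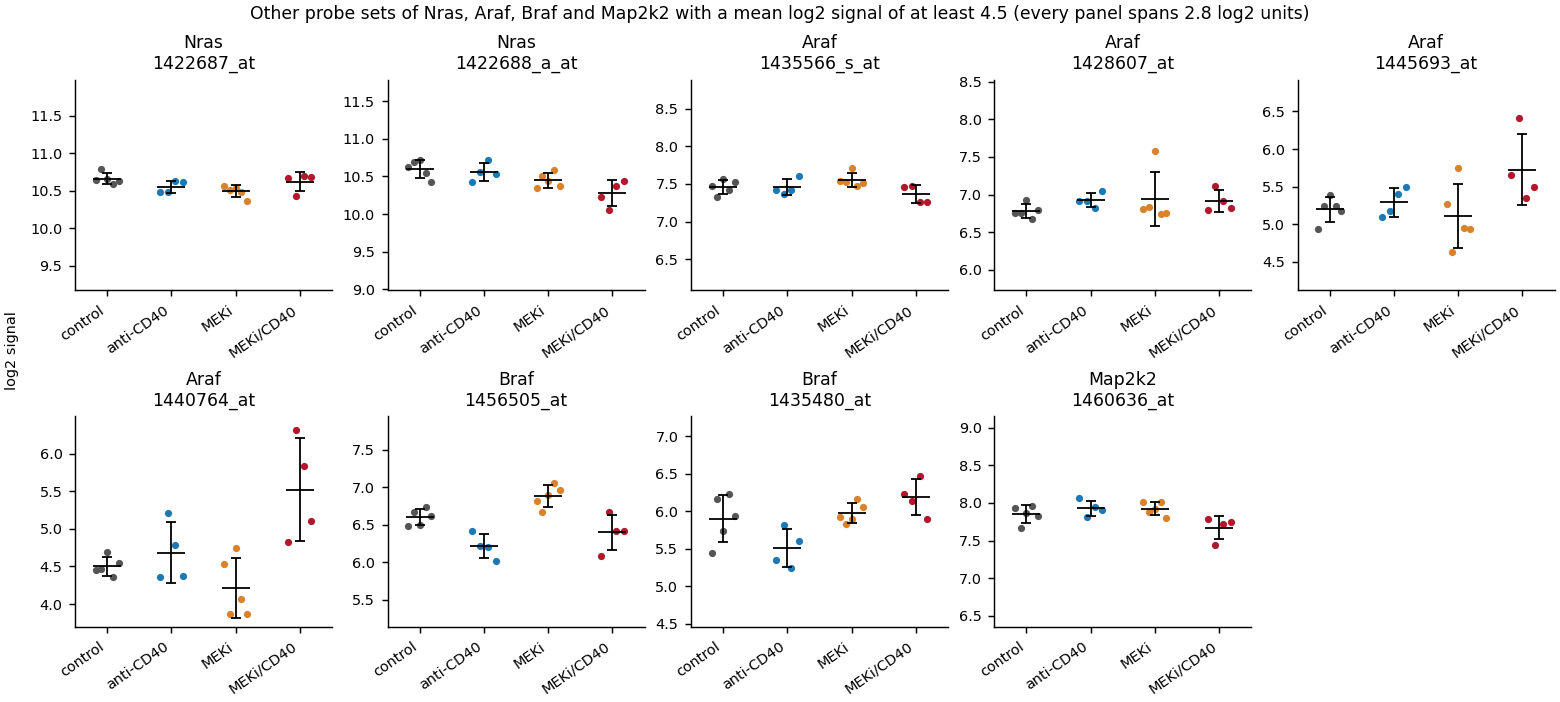
Log2 signal (vertical axis) of 9 further probe sets of Nras, Araf, Braf and Map2k2 with a mean of at least 4.5, by treatment group (horizontal axis). Points are single tumours, marks are group means, bars are SD, and every panel spans 2.8 log2 units. For Braf 1456505_at the MEKi tumours (6.67 to 7.06) lie above the anti-CD40 tumours (6.02 to 6.41).

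Map2k1 and Map2k2 encode MEK1 and MEK2, the targets of the inhibitor. Map2k1, measured by 1 probe set, read 11.40, 11.33, 11.23, 11.33 and 11.30 in control, 11.69, 11.30, 11.30 and 11.42 in anti-CD40, 11.41, 11.47, 11.44, 11.20 and 11.35 in MEKi, and 11.32, 11.21, 11.36 and 11.14 in MEKi/CD40. The highest value was in anti-CD40 and the lowest in MEKi/CD40, and all groups overlapped. Against control the difference was 0.056 ± 0.054 in MEKi (95% interval -0.067 to 0.18, limma adjusted p = 0.629) and -0.0605 ± 0.053 in MEKi/CD40 (interval -0.18 to 0.063, adjusted p = 0.601). These intervals correspond to changes of -4.56% to 13.2% and of -12.0% to 4.47%. The difference was 0.11 ± 0.084 in anti-CD40, and the interaction was -0.23 ± 0.11 (limma adjusted p = 0.368).

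Map2k2 read 11.31, 11.00, 11.12, 11.19 and 11.19 in control, 11.05, 11.06, 11.13 and 11.07 in anti-CD40, 11.18, 11.14, 11.04, 11.16 and 11.14 in MEKi, and 11.17, 10.90, 11.24 and 11.20 in MEKi/CD40. Its lowest value was in MEKi/CD40 2, the array with the highest adipocyte markers, and without that array the difference between MEKi/CD40 and anti-CD40 was 0.13 and passed the threshold (limma adjusted p = 0.0496), against 0.05 ± 0.077 (adjusted p = 0.866) with it. Against control Map2k2 differed by -0.03 ± 0.055 in MEKi (interval -0.16 to 0.096, adjusted p = 0.937), by -0.0345 ± 0.087 in MEKi/CD40 and by -0.0845 ± 0.058 in anti-CD40. These 4 group means lay within 0.0845 of each other, from 11.08 to 11.16, with SDs of 0.036 to 0.15.

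The second probe set of Map2k2, 1460636_at, was 7.44 to 7.79 in MEKi/CD40, 7.80 to 8.01 in MEKi, 7.81 to 8.06 in anti-CD40 and 7.66 to 7.96 in control. Here the MEKi/CD40 tumours were below all MEKi and all anti-CD40 tumours, by -0.25 ± 0.081 (adjusted p = 0.162) and -0.26 ± 0.092 (limma adjusted p = 0.151), and they overlapped with control. The brighter set showed -0.0045 and 0.05 in the same comparisons, so the 2 probe sets of Map2k2 did not give the same pattern. Against MEKi and anti-CD40, 8.93% and 18.4% of all probe sets did not overlap with MEKi/CD40, and 19.7% and 41.2% of those with a mean of at least 7.

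Whether paralogues moved unequally was asked with the difference between 2 genes on the same array. A constant shift of a whole array leaves that difference unchanged, while scaling that depends on signal level can change it. Map2k1 minus Map2k2 changed against control by 0.086 in MEKi, by -0.026 in MEKi/CD40 and by 0.19 in anti-CD40 (exact two-sided permutation tests, adjusted p = 0.452, 0.905 and 0.333 over 6 tests). Araf minus Braf changed by -0.23 in MEKi, by 0.14 in MEKi/CD40 and by -0.068 in anti-CD40 (exact two-sided permutation tests, adjusted p = 0.333, 0.452 and 0.8). The smallest p these exact tests can give was 0.00794 for 5 against 5 tumours and 0.0159 for 5 against 4, before adjustment. Over 6 tests a lone smallest p adjusts to 0.0476 and 0.0952, so a single change between 5 and 4 tumours could not have passed here, and the missing calls say little about those 4 tests. Hras minus Nras was not run, since Hras was not analysed here.

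Among the 8512 genes with a mean of at least 7, Nras, Braf, Map2k1 and Map2k2 had spreads between tumours of 1 group below the median gene, and Araf had a larger one (62.4% of these genes had a smaller SD). The group means of Map2k2 and Nras spanned 0.0845 and 0.0885, and 3.05% and 3.52% of these genes had a smaller span. The group means of Map2k1 spanned 0.17, those of Braf 0.24 and those of Araf 0.32, where the median gene spanned 0.38. Within groups the pooled SD ran from 0.073 for Nras to 0.18 for Araf around a median gene of 0.16. The small spans of Nras and Map2k2 went with SDs that 3.95% and 15.8% of these genes fell below.

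Genes whose signals were most like those of each member over the 18 arrays were ranked by Pearson's r among 8362 genes, as a description only, since all points share the same 18 libraries and their cell mixture. For Nras these were Tubgcp4 (r = 0.80, Spearman's rho = 0.78), Zfhx3 (r = 0.77) and Mtmr12 (r = 0.75). For Araf they were Zdhhc3 (r = 0.90, rho = 0.82), Ifitm2 (r = 0.82) and Fam234a (r = 0.81), and for Braf Tet2 (r = 0.84, rho = 0.75), Fam117b (r = 0.82) and Hk2 (r = 0.81). For Map2k1 they were Pkm (r = 0.76, rho = 0.59), Tmem201 (r = 0.76) and Pdxp (r = 0.76), and for Map2k2 Ap2s1 (r = 0.80, rho = 0.86), Ptp4a3 (r = 0.76) and Aup1 (r = 0.74). Each member's signals spanned under 1 unit, so these likenesses rest on small differences between arrays.

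Around the core cascade, 95 further genes were listed in 7 groups, also with earlier results of these data known, and 85 had a single-symbol probe set. In MEKi/CD40 against control 11 of these rose and 10 fell (24.7% called, against 14.9% of all probe sets and 35.7% of the brighter ones), with a median difference of -0.0035. With each array centred on the median of its brighter probe sets, which also moves values at background, the split was 27 that rose and 13 that fell. In MEKi against control 6 rose and 7 fell (15.3%, against 7.83% of all probe sets and 19.1% of the brighter ones), and in anti-CD40 against control 0 of the 85 were called (limma, 6 at an unadjusted p under 0.05). The counts were 6 rises and 3 falls for MEKi/CD40 against anti-CD40, 2 and 0 for MEKi/CD40 against MEKi, and 6 and 4 for MEKi against anti-CD40. In the same order these were 10.6%, 2.35% and 11.8% of the 85 genes, against 11.6%, 2.5% and 5.09% of all probe sets. Among the brighter probe sets the shares called were 28.4%, 5.85% and 12.9%. The comparisons against control share the control tumours. The 21 calls for MEKi/CD40 against control came to 8 that held when each tumour was left out in turn, and the 13 for MEKi to 5.

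The pathway calls depended on how the numbers in the tumour titles, which the labels do not explain, were treated. These numbers fall into 3 ranges. The lowest holds the 4 anti-CD40 and 2 MEKi tumours, the middle one the 4 MEKi/CD40 and 2 control tumours, and the highest 3 control and 3 MEKi tumours. Within the pairs anti-CD40 and control, anti-CD40 and MEKi/CD40, and MEKi and MEKi/CD40 no range holds both groups, so range and treatment cannot be told apart there. With the lower ranges merged, which leaves 2 ranges (called series here), and the series as a block, 4 of the 21 calls for MEKi/CD40 against control were kept (Rps6ka6, Rasal2, Rps6ka3 and Zdhhc9), 12 of 13 for MEKi against control, 0 of 2 for MEKi/CD40 against MEKi and 1 of 10 for MEKi against anti-CD40 (Brap). With all 18 arrays in 1 fit and the 3 ranges as a block, an alternative chosen after the data were seen that assumes the same range effect in every group, the calls kept were 18 of 21 and 0 of 13 against control, 3 of 9 for MEKi/CD40 against anti-CD40, 0 of 2 and 1 of 10. Of the 5 members 0 were called under either block in the comparisons where it could be fitted (limma).

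**Figure D4:**
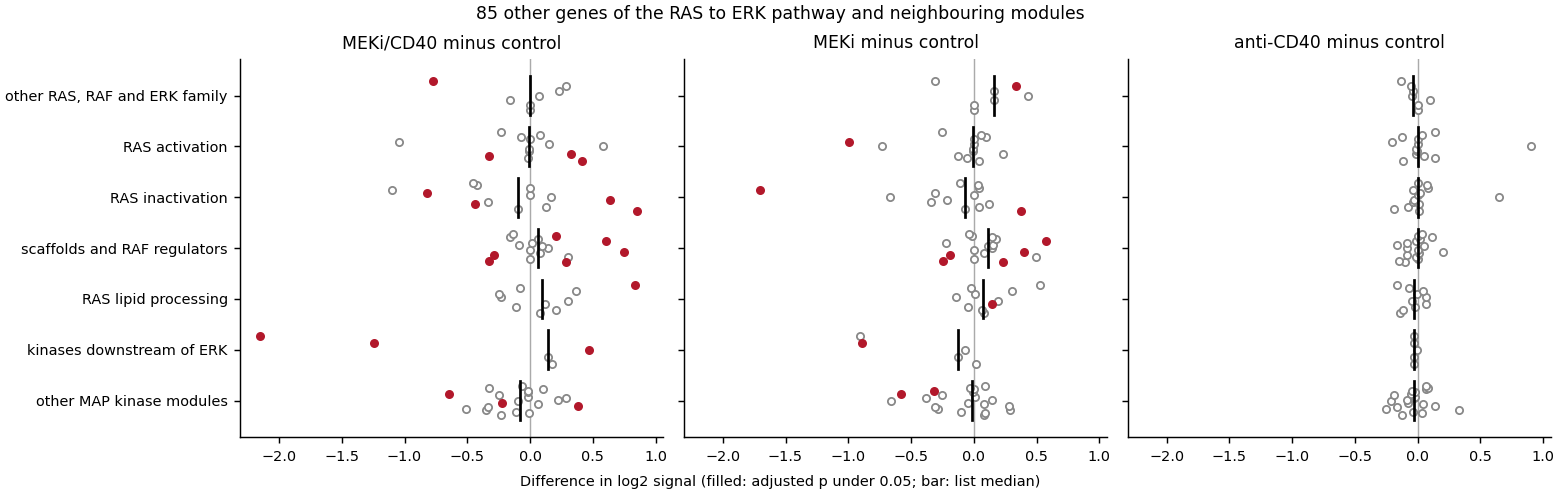
Difference in log2 signal against control (horizontal axis) of 85 further pathway genes in 7 lists (vertical axis), for MEKi/CD40, MEKi and anti-CD40. Filled points passed an adjusted p under 0.05 (21, 13 and 0 genes), open points did not, and black bars are list medians.

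In MEKi/CD40 against control the largest difference among these 85 genes was in a kinase downstream of ERK, a list of which 1 of 5 measured genes rose and 2 fell. Rps6ka6, which encodes the ribosomal S6 kinase RSK4, read 10.93, 10.58, 10.70, 10.78 and 10.57 in control, 10.77, 10.69, 10.78 and 10.48 in anti-CD40, 9.33, 10.03, 9.14, 10.37 and 10.14 in MEKi, and 8.46, 8.29, 8.29 and 9.19 in MEKi/CD40. All 5 MEKi tumours were below all control and anti-CD40 tumours, and 3 of the 4 MEKi/CD40 tumours were below all MEKi tumours. Between MEKi and these groups 21.3% (control) and 24.8% (anti-CD40) of the brighter probe sets did not overlap. Rps6ka6 fell by 2.15 ± 0.20 in MEKi/CD40 against control (limma adjusted p = 0.00121) and by 2.12 ± 0.22 against anti-CD40 (adjusted p = 0.00391). The difference was -0.91 ± 0.24 in MEKi (adjusted p = 0.0587) and -0.032 ± 0.095 in anti-CD40, and the interaction was -1.21 ± 0.34 (limma adjusted p = 0.0752). Its next brightest probe set fell too in MEKi/CD40 (-1.30, limma adjusted p = 0.00749). With the series as a block Rps6ka6 in MEKi/CD40 kept its call (limma adjusted p = 0.00947), as it did with 3 ranges (adjusted p = 0.000888), and against the 2 control tumours of the middle range alone it missed it (adjusted p = 0.0626).

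Rps6ka5, which encodes the stress- and mitogen-activated kinase MSK1, was 6.46 to 7.24 in control, 6.56 to 6.86 in anti-CD40, 5.31 to 6.19 in MEKi and 4.91 to 6.15 in MEKi/CD40. Both groups with the inhibitor lay below both groups without it. In single pairs of a group with and a group without the inhibitor, 9.17% to 18.4% of all probe sets did not overlap. Rps6ka5 fell by 1.24 ± 0.31 in MEKi/CD40 (adjusted p = 0.0355) and by 0.89 ± 0.20 in MEKi (limma adjusted p = 0.0312), and these calls were lost in 7 of 9 and 6 of 10 fits that left out 1 tumour. Rps6ka3, which encodes RSK2, rose by 0.47 ± 0.073 in MEKi/CD40 (adjusted p = 0.00615), while its next brightest probe set read -0.35 (limma adjusted p = 0.365).

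Among other members of the RAS, RAF and ERK families, 1 of 7 measured genes fell in MEKi/CD40 and 1 rose in MEKi. Rras2, a RAS-related GTPase also known as TC21, read 10.34, 10.27, 10.45, 10.73 and 10.09 in control, 10.04, 10.27, 10.37 and 10.29 in anti-CD40, 9.92, 10.35, 10.20, 10.03 and 9.82 in MEKi, and 9.61, 9.60, 9.80 and 9.40 in MEKi/CD40. The MEKi/CD40 tumours were below all others, and Rras2 fell there by 0.77 ± 0.14 against control (adjusted p = 0.00992) and by 0.64 ± 0.11 against anti-CD40 (limma adjusted p = 0.0137), the latter lost without anti-CD40 2 (-0.63, adjusted p = 0.0505). Against control, anti-CD40 and MEKi, 38.1%, 41.2% and 19.7% of the brighter probe sets did not overlap with MEKi/CD40. The call against control was lost with the series as a block (-0.70, limma adjusted p = 0.0728) and without the 3 arrays of highest adipocyte score (-0.67, adjusted p = 0.0954), and kept with 3 ranges (-0.70, adjusted p = 0.0165). Rras, another RAS-related GTPase, rose in MEKi by 0.33 ± 0.076 (limma adjusted p = 0.0351), a call lost in 8 of 10 fits that left out 1 tumour.

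Of 13 measured genes that act in RAS activation, 2 rose and 1 fell in MEKi/CD40, and 1 fell in MEKi. Ptpn11, which encodes the phosphatase SHP2 that links receptors to RAS, was 11.57 to 11.80 in MEKi/CD40, 11.42 to 11.64 in MEKi, 11.27 to 11.39 in anti-CD40 and 11.23 to 11.51 in control. It rose by 0.33 ± 0.079 in MEKi/CD40 against control (limma adjusted p = 0.0306), by 0.34 ± 0.059 against anti-CD40 (adjusted p = 0.0164), and by 0.24 ± 0.049 in MEKi against anti-CD40 (adjusted p = 0.0394). Its next brightest probe set read 0.77 in MEKi/CD40 against control (limma adjusted p = 0.0105), and the call of the brightest was lost in 6 of 9 fits that left out 1 tumour. The adaptor Gab1 rose by 0.41 ± 0.10 in MEKi/CD40 (adjusted p = 0.0383), and the adaptor Grb2 fell by 0.33 ± 0.083 (limma adjusted p = 0.0377), with 0.093 by its next brightest probe set, and these calls were lost in 7 of 9 and 8 of 9 such fits. The exchange factor Rasgrp3 fell in MEKi by 0.99 ± 0.19 (adjusted p = 0.022), lost without control 2 (-0.98, adjusted p = 0.0534) or MEKi 1 (-1.01, adjusted p = 0.0538), and its next brightest probe set read -0.034 (limma adjusted p = 0.629). Sos2, the exchange factor that Grb2 brings to receptors, was lower than in anti-CD40 by 0.37 ± 0.081 in MEKi/CD40 and by 0.39 ± 0.067 in MEKi (limma adjusted p = 0.0342 and 0.0265), calls lost in 6 of 8 and 6 of 9 such fits.

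Of 13 measured genes that act in RAS inactivation, 2 rose and 2 fell in MEKi/CD40, and 1 rose and 1 fell in MEKi. Dab2ip, a GTPase-activating protein for RAS, read 7.32, 7.46, 7.36, 7.21 and 7.25 in control, 7.35, 7.22, 7.23 and 7.54 in anti-CD40, 7.85, 7.66, 7.79, 7.63 and 7.56 in MEKi, and 8.52, 8.45, 7.65 and 8.07 in MEKi/CD40. Both groups with the inhibitor lay above both groups without it. In single pairs of a group with and a group without the inhibitor, 21.3% to 41.2% of the brighter probe sets did not overlap. Dab2ip rose by 0.85 ± 0.18 in MEKi/CD40 (adjusted p = 0.0186) and by 0.38 ± 0.067 in MEKi (limma adjusted p = 0.0164), and the MEKi/CD40 call was lost without MEKi/CD40 2 (0.76, adjusted p = 0.051). It was also lost with the series as a block (0.78, limma adjusted p = 0.118) and without the 3 arrays of highest adipocyte score (0.765, adjusted p = 0.134), and kept with 3 ranges (0.78, adjusted p = 0.0151), while the next brightest probe set in MEKi read 0.16 (adjusted p = 0.433). With 3 ranges the MEKi call of Dab2ip was lost. Further GTPase-activating proteins went both ways in MEKi/CD40, where Rasa3 rose by 0.64 ± 0.15 (adjusted p = 0.0293), Rasal2 fell by 0.82 ± 0.15 (adjusted p = 0.0102) and Rasa1 fell by 0.44 ± 0.12 (limma adjusted p = 0.0484). The calls of Rasa3 and Rasa1 were each lost in 7 of 9 fits that left out 1 tumour. In MEKi, Rasal3, a GTPase-activating protein found mainly in blood cells, fell by 1.71 ± 0.32 (adjusted p = 0.0193), in the group where the mean of leukocyte markers was lowest, with -0.44 (limma adjusted p = 0.0651) by its next brightest probe set.

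Among 17 measured scaffolds and RAF regulators, 4 rose and 2 fell in MEKi/CD40, and 3 rose and 2 fell in MEKi. Ksr1, the scaffold that holds RAF and MEK together, rose by 0.75 ± 0.16 in MEKi/CD40 (adjusted p = 0.0197) and by 0.40 ± 0.083 in MEKi (adjusted p = 0.0259), at a low level (4.91 on average in control), and its next brightest probe set read 0.002 in both. The calls of Ksr1 were lost in 3 of 9 and 7 of 10 fits that left out 1 tumour. Peak1, a pseudokinase, was 9.87 to 10.38 in control, 10.08 to 10.28 in anti-CD40, 10.63 to 10.95 in MEKi and 10.57 to 11.03 in MEKi/CD40, again without overlap between tumours with and without the inhibitor. For single pairs of such groups 21.3% to 41.2% of the brighter probe sets did not overlap. Peak1 rose by 0.60 ± 0.13 in MEKi/CD40 (adjusted p = 0.0189, or 0.0506 without MEKi/CD40 2, where the difference was 0.61) and by 0.58 ± 0.10 in MEKi (limma adjusted p = 0.0164), and its next brightest probe set rose too in MEKi (0.62, adjusted p = 0.027). By that probe set the calls of MEKi/CD40 against control and against anti-CD40 were lost. The MEKi/CD40 call against control was also lost with the series as a block and without the 3 arrays of highest adipocyte score. It was kept with 3 ranges, where the MEKi call of Peak1 was lost. Brap, a RAS-responsive ubiquitin ligase that restrains Ksr1, rose in MEKi by 0.23 ± 0.044 (limma adjusted p = 0.0196), lost without MEKi 1 (0.22, adjusted p = 0.0528), with 0.22 (adjusted p = 0.216) by its next brightest probe set.

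The chaperone pair that stabilises RAF kinases was lower. Hsp90aa1, which encodes a form of HSP90, read 14.58, 14.65, 14.68, 14.63 and 14.53 in control, 14.54, 14.55, 14.59 and 14.44 in anti-CD40, 14.34, 14.45, 14.51, 14.37 and 14.45 in MEKi, and 14.28, 14.41, 14.40 and 14.23 in MEKi/CD40. It fell by 0.28 ± 0.048 in MEKi/CD40 (adjusted p = 0.00851) and by 0.19 ± 0.040 in MEKi (limma adjusted p = 0.0268), the latter lost in 7 of 10 fits that left out 1 tumour. Its next brightest probe set fell too in MEKi/CD40 (-0.76, adjusted p = 0.000322). The MEKi/CD40 call of the brightest was lost with the series as a block (-0.285, limma adjusted p = 0.0526) and under cyclic loess (-0.18, adjusted p = 0.116), and kept with 3 ranges (-0.285, adjusted p = 0.00851). With 3 ranges the MEKi call of Hsp90aa1 was lost. The kinase co-chaperone Cdc37 fell by 0.33 ± 0.074 in MEKi/CD40 (adjusted p = 0.025) and by 0.25 ± 0.048 in MEKi (limma adjusted p = 0.0217), with 0.018 by its next brightest probe set in MEKi. The calls of Cdc37 were lost in 6 of 9 and 2 of 10 such fits, the latter without control 3 (-0.25, adjusted p = 0.0529) or MEKi 2 (-0.24, adjusted p = 0.0503). Ywhab, a 14-3-3 protein that binds phosphorylated RAF, rose by 0.21 ± 0.040 in MEKi/CD40 (adjusted p = 0.0136). That call was lost with the series as a block (0.17, limma adjusted p = 0.101), by the next brightest probe set (0.0715, adjusted p = 0.055) and with trend and robust moderation (0.21, adjusted p = 0.0526), and kept with 3 ranges (0.17, adjusted p = 0.0218).

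Of 10 measured genes of RAS lipid processing, 1 rose in MEKi/CD40 and 1 in MEKi. Zdhhc9, a subunit of the palmitoyltransferase for Hras and Nras, read 7.98, 8.38, 8.12, 8.33 and 8.42 in control, 7.96, 8.15, 8.04 and 8.18 in anti-CD40, 9.06, 8.80, 9.08, 8.34 and 8.58 in MEKi, and 9.29, 9.25, 8.92 and 8.87 in MEKi/CD40. It rose by 0.84 ± 0.13 in MEKi/CD40 against control (limma adjusted p = 0.00656) and by 1.00 ± 0.12 against anti-CD40 (adjusted p = 0.00534), and the difference was 0.53 ± 0.16 in MEKi (adjusted p = 0.0893). Its next brightest probe set read -0.0055. Golga7, the partner subunit of the same enzyme, rose in MEKi by 0.15 ± 0.037 (limma adjusted p = 0.0492), a call lost in 9 of 10 fits that left out 1 tumour.

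**Figure D5:**
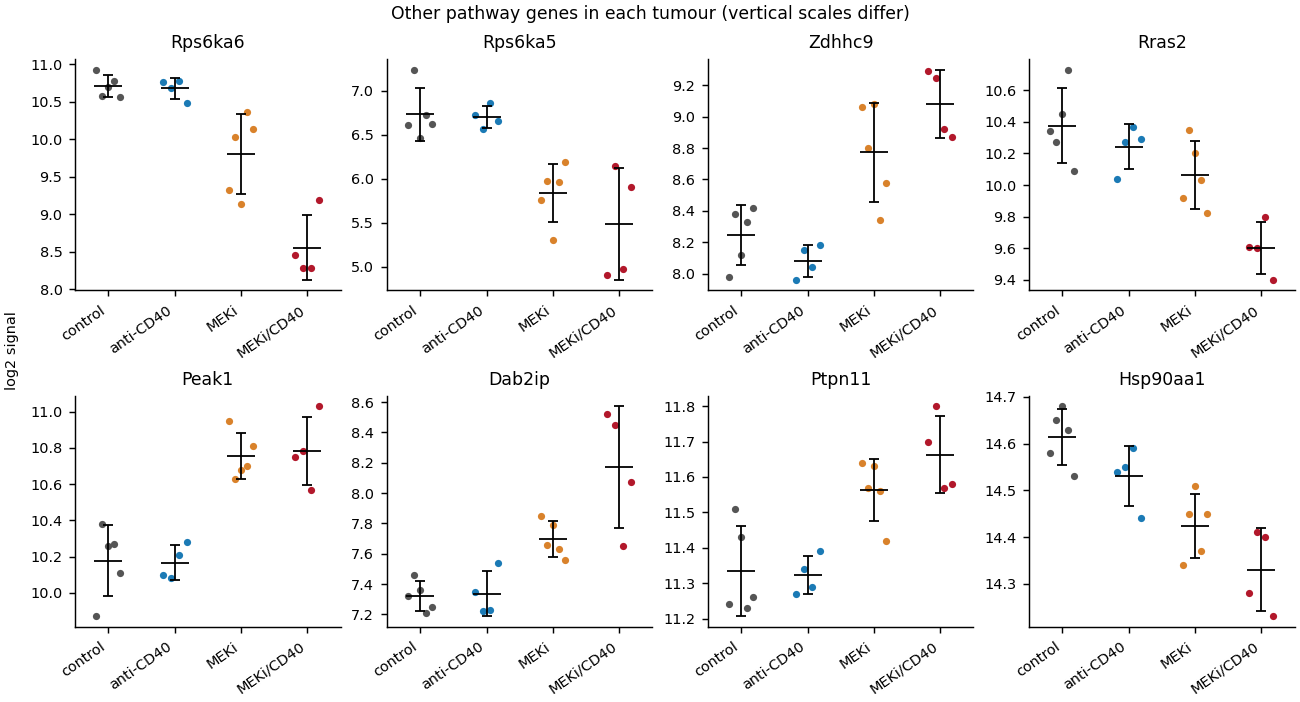
Log2 signal (vertical axis, scales differ between panels) of 8 further pathway genes in each tumour by treatment group (horizontal axis), with points for single tumours, marks for group means and bars for SD. Rps6ka6 falls from 10.57 to 10.93 in control to 8.29 to 9.19 in MEKi/CD40, and Zdhhc9 rises from 7.98 to 8.42 to 8.87 to 9.29.

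Of 20 measured genes of neighbouring MAP kinase modules, 1 rose and 2 fell in MEKi/CD40, and 2 fell in MEKi. Mapk12, which encodes p38 gamma, fell by 0.64 ± 0.12 in MEKi/CD40 (adjusted p = 0.0106) and by 0.58 ± 0.087 in MEKi (limma adjusted p = 0.01), with -0.0155 and -0.018 by its next brightest probe set. Its MEKi/CD40 call was lost with the series as a block and without the 3 arrays of highest adipocyte score. The MEKi call of Mapk12 was lost with 3 ranges, and both calls were lost with the adipocyte score as a covariate. Mapk14, which encodes p38 alpha, fell in MEKi by 0.32 ± 0.061 (adjusted p = 0.0198) and also by its next brightest probe set (-0.47, limma adjusted p = 0.0221). The call of the brightest was lost with 3 ranges, with the adipocyte score as a covariate and with trend and robust moderation. In MEKi/CD40 the upstream kinase Map3k2 rose by 0.38 ± 0.099 (adjusted p = 0.0425) and Map3k4 fell by 0.23 ± 0.056 (limma adjusted p = 0.0361), calls lost in 8 of 9 and 6 of 9 fits that left out 1 tumour.

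With anti-CD40 alone, the genes with the smallest p in each list differed little or varied between tumours, and none was called. Abhd17a, a depalmitoylase, differed by -0.14 ± 0.042 (unadjusted p = 0.0126, adjusted p = 0.736, limma), Golga7 by 0.0695 ± 0.041, Cdc37 by -0.15 ± 0.050 and Ksr1 by 0.20 ± 0.071. Rasa4 differed by 0.65 ± 0.26, Nf1, which encodes neurofibromin, by -0.073 ± 0.029, and the adaptor Shc1 by -0.13 ± 0.058. The kinases Map2k6, Map3k7 and Mknk2 differed by 0.33 ± 0.16, -0.084 ± 0.044 and -0.0255 ± 0.076, Rras2 differed by -0.13 ± 0.13, and Mapk4 lay at background in both groups. Rasgrp1, an exchange factor of T cells, differed by 0.91 ± 0.44 (limma adjusted p = 0.927), in the group with the highest mean T cell markers (6.91 against 5.71 in control). In MEKi these markers averaged 6.06, above control, while Rasgrp1 averaged 4.96 against 5.69 in control. The part of T cells in the values of Rasgrp1 was not tested. In MEKi against anti-CD40, Rasgrp1 fell by 1.64 ± 0.35 (limma adjusted p = 0.0447), a call lost in 8 of 9 fits that left out 1 tumour, with -0.0245 (adjusted p = 1) by its next brightest probe set.

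Among the treated groups, further calls went to genes already named. In MEKi/CD40 against anti-CD40, Peak1 rose by 0.615 ± 0.10, Gab1 by 0.525 ± 0.10, Brap by 0.385 ± 0.075 and Ywhab by 0.20 ± 0.036 (limma adjusted p = 0.0146, 0.0221, 0.0233 and 0.0171). The next brightest probe set of Brap read -0.22 there (limma adjusted p = 0.625) and -0.29 in MEKi/CD40 against control (adjusted p = 0.0687), so its direction in MEKi/CD40 depended on the probe set. In MEKi against anti-CD40, Peak1 rose by 0.59 ± 0.075 and Brap by 0.33 ± 0.040, and Rps6ka5 fell by 0.86 ± 0.17 (limma adjusted p = 0.0163, 0.0142 and 0.0375). Mras, a RAS-related GTPase, rose there by 0.47 ± 0.098 (adjusted p = 0.041), Pggt1b, a prenyltransferase subunit, by 0.26 ± 0.054 (adjusted p = 0.0406) and Map3k7 by 0.23 ± 0.050 (limma adjusted p = 0.0468), while Rasa2 fell by 0.31 ± 0.058 (adjusted p = 0.0328). The next brightest probe sets of Map3k7 and Rasa2 read -0.0245 and -0.016 (limma adjusted p = 0.98 and 1), and the calls of the brightest were lost in 9 of 9 and 7 of 9 fits that left out 1 tumour. Between both groups that received the inhibitor, Rasa3 rose by 0.85 ± 0.16 in MEKi/CD40 (limma adjusted p = 0.0477) and Ywhab by 0.225 ± 0.038 (adjusted p = 0.0357), and leaving out 1 tumour lost these calls in 9 of 9 and 7 of 9 fits. Of the 9 calls against anti-CD40 in MEKi/CD40, 2 held when each tumour was left out in turn (Rps6ka6 and Zdhhc9), and of the 10 in MEKi 0 did. Whether the 5 cascade members differed from their called neighbours was not tested.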

How the data were processed

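Signals of 18 arrays (1 per tumour) were used as the authors deposited them, as log2 values per probe set after RMA (robust multichip averaging). The values ran from 2.16 to 16.34 and 34.5% equalled the lowest, which plain RMA does not give, so the background step is uncertain and a group at the floor has no known level. Arrays carry no read depth, and the number of arrays limits the precision. No genome build applies, and no coordinates are given.

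Of 45101 probe sets, 64 control sets were left out. Symbols came from the platform annotation, where 34945 probe sets had 1 symbol, 932 several and 9160 none. Each pair of groups, and a model of both drugs over all arrays, was tested by limma 3.58.1 (R 4.3.3) using Benjamini-Hochberg adjustment over all probe sets. Differences between paralogues were tested with scipy 1.17.1, adjusted over the 6 tests that could be run in place of 9. The fit was tested on simulated data with 200 changed probe sets. Errors are SE unless called SD.

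The members and lists were chosen with earlier results of these data known. Members are all named. From each list the called genes were named in order of p, up to 4 per comparison, and in comparisons with control the 2 smallest p of a list with no call (between treated groups, called genes only). A gene named for 1 comparison may have its values in another given. Genes most like a member were the 3 with the highest r among those with a mean of at least 7. Alternatives changed the scaling, a filter (5 or above on 4 arrays), a floor of 3, the fit, blocks, the probe set and single arrays. Each array held tumour RNA of 1 mouse per the labels, so p-values measure spread between animals, together with any spread between pieces of a tumour.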

Additional observations from a re-analysis of the deposited data

Results flagged for a closer look

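Map2k2 read 11.04 in MEKi 3 while the other MEKi tumours read 11.14 to 11.18, so this tumour stood apart from its group. It was the 1 such value among 52 groups of 4 or 5 tumours examined for the members and the further genes shown by tumour, where chance gives about 5% of groups. For Ywhab the difference made by anti-CD40 was called as unequal with and without the inhibitor. It was 0.225 ± 0.038 between MEKi/CD40 and MEKi and 0.0045 between anti-CD40 and control, an interaction of 0.22 ± 0.050 (limma adjusted p = 0.0337). This was the 1 such call among the 85 pathway genes, 1.18% against 2.64% of all probe sets and 5.63% of the brighter ones. Of 18 fits that left out 1 tumour, 9 lost this call, with values from 0.20 to 0.23 in those that did. It was also lost with replicate numbers as a block (0.22, limma adjusted p = 0.0867) and with 3 ranges of title numbers as a block (0.19, adjusted p = 0.886). The filter on low values and the low number series alone lost it too.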

How the results depend on the processing

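Alternatives changed the counts of called pathway genes more than the members, whose 35 differences gave 732 of 823 values on the same side of the threshold and in the same direction, 4 newly called and 87 with the sign turned, all 87 from differences that were not called. Below, A stands for MEKi/CD40 against control, B for MEKi against control, C for anti-CD40 against control, D for MEKi/CD40 against anti-CD40, E for MEKi/CD40 against MEKi, F for MEKi against anti-CD40 and I for the interaction, and values are log2 differences or numbers of called pathway genes. The cause was not tested except where stated.

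Median centring of the brighter probe sets gave 40 calls in A, 19 in D, 4 in E, 17 in F and 3 in I, with Map2k2 at 0.017 (A) and 0.035 (E) and Nras at 0.03075 (I). Quantile normalization gave 15 calls in D and 3 in I, with Araf at 0.000389 (B), Map2k2 at 0.0219 (E) and Nras at 0.0164 (I). Cyclic loess gave 16 calls in D, with Map2k1 at 0.00894 and Map2k2 at 0.0323 (A), Map2k2 at 0.0581 (E) and Nras at 0.0600 (I). The filter on low values, by which fewer probe sets were tested, gave 24 calls in B, 23 in D, 10 in E, 22 in F and 6 in I. One fit of all 18 arrays, which does not apply to I, gave 30 calls in D and 10 in E, values below 3 raised to 3 gave 1 in E, and trend and robust moderation gave 11 in A, 4 in B, 4 in D, 0 in E and 0 in F.

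Replicate numbers in the titles did not pair tumours (correlations of deviations from -0.41 to 0.30). The replicate block, which leaves fewer degrees of freedom, gave 0 called pathway genes in A, B, D, E, F and I, left every member uncalled, and turned Nras to -0.025 (E). The number series as a block gave 5 calls in A, 0 in E and 1 in F, with Araf at 0.01 and Braf at 0.025 (C), Nras at -0.0125 (E) and Map2k1 at 0.0125 (F). The low number series alone, with fewer tumours, gave 0 in A, 0 in B, 0 in E, 1 in F and 0 in I, with Araf at 0.11 and Map2k2 at 0.005 (B) and the same 4 values in C, E and F. Neither could be run for D, since both groups lie in the low series, but they lie in different ranges of title numbers, so range and group cannot be told apart in that pair. With all 18 arrays in 1 fit and 3 number ranges as a block (chosen after the data were seen) there were 24 calls in A, 0 in B, 3 in D, 0 in E, 2 in F and 0 in I, with Nras at -0.0208 and Braf at 0.122 (C), Map2k2 at 0.0258 (E), Map2k1 at 0.0125 (F) and Nras at 0.0317 (I).

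The next brightest probe set, not available for Map2k1, gave 11 calls in A, 5 in B, 4 in E, 2 in F and 3 in I among pathway genes and 1 member call in F (Braf, 0.663). Members with a turned sign were Araf -0.0995 and Braf -0.2045 (A), Araf 0.09 and Map2k2 0.076 (B), Nras -0.112 and Map2k2 0.0795 (C), Nras 0.07, Araf -0.0925 and Map2k2 -0.255 (D), Araf -0.1895 (E), Map2k2 -0.0035 (F), and Nras 0.24, Araf -0.1825 and Map2k2 -0.331 (I). Pathway genes with a turned sign were Grb2 0.093, Brap -0.2915, Zdhhc9 -0.0055, Rps6ka3 -0.3545 and Map3k2 -0.038 (A), Cdc37 0.018 (B), Brap -0.2175 (D) and Map3k7 -0.0245 (F). Map2k1 minus Map2k2 became 0.115 (A) and -0.02 (B), and Araf minus Braf 0.38 (C). Hras minus Nras was not run.

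With the 3 arrays of highest adipocyte score left out (chosen after the data were seen) there were 8 calls in A, 2 in D, 0 in E, 2 in F and 3 in I, with Map2k1 at 0.022 and Map2k2 at 0.043 (A), Nras at -0.0113, Araf at 0.00133 and Braf at 0.0227 (C), Nras at -0.009 and Map2k2 at 0.073 (E), Araf at -0.0213 (F) and Nras at 0.00233 (I). With the adipocyte score as a covariate (also chosen then) there were 5 calls in A, 1 in E and 3 in I, 1 member call in B and 1 in F (both Braf), with Map2k1 at 0.00675 and Map2k2 at 0.0844 (A), Araf at 0.0722 (B), Nras at -0.00213 and Braf at 0.036 (C), Map2k2 at 0.0527 (E) and Map2k1 at 0.0118 (F).

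Leaving out 1 tumour at a time gave 11 to 24 calls in A, 6 to 15 in B, 2 to 16 in D, 0 to 2 in E, 0 to 9 in F and 0 to 4 in I, and 0 to 1 member calls in D (Map2k2, without MEKi/CD40 2). Ranges that crossed 0 were those of Map2k2 from -0.075 to 0.0413 (A), -0.0705 to 0.007 (B) and -0.042 to 0.0713 (E), Araf from -0.0705 to 0.032 (B), -0.202 to 0.00133 (C) and -0.0213 to 0.182 (F), Nras from -0.0175 to 0.0287 (C), -0.025 to 0.0325 (E) and -0.0295 to 0.028 (I), Braf from -0.07 to 0.025 (C), Map2k1 from -0.096 to 0.034 (F) and Map2k1 minus Map2k2 from -0.086 to 0.0373 (A). Precision was limited by 4 or 5 arrays a group, and 6 probe sets of Braf near background carried no level.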
